A study of Danio rerio with 20 samples.

Results

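The 10 genes described here, all of Wnt signalling, were measured in oligodendrocyte precursor cells (OPCs, the glial cells from which myelinating oligodendrocytes arise) sorted from zebrafish. They were matched by gene symbol, and the list was chosen by the measured values of the 4-aminopyridine contrast, in which the Wnt antagonist gene sfrp5 had shown the largest rise. All 10 symbols had an entry among the 31743 genes of each deposited table. The genes were sfrp5, sfrp1a, sfrp1b, sfrp2, frzb, wif1, dkk1b, dkk3b, kremen1 and axin2. Their values and calls in that contrast are therefore given as a description and not as support, while the demyelination contrast was not used to choose them.

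RNA was sequenced from transcript 3' ends in 20 libraries, 5 in each of 4 groups, after a treatment of 16 h. Fish received 4-aminopyridine (4AP, a potassium channel blocker) or were its control, or were demyelinated by capsaicin acting on the TRPV1 channel or were the control of that treatment. The labels give no strain, age, transgene or sorting marker, and do not say whether libraries came from separate animals or pools. P-values therefore measure the spread between these libraries, which may be technical.

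Wnt ligands bind Frizzled receptors and their Lrp co-receptors at the cell surface, and in the canonical branch this lets β-catenin build up and act in the nucleus with Tcf and Lef factors. Secreted antagonists work outside the cell: Sfrp proteins, Frzb and Wif1 bind the ligands, and Dkk1 binds the Lrp co-receptors together with Kremen. In the oligodendrocyte lineage of mice, canonical Wnt signalling is known for its influence on when precursors differentiate, and Axin2 is widely used as a readout of the pathway.

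Total gene reads ran from 163158 to 897620 in the 4AP controls, from 356494 to 1744483 in 4AP, from 1180 to 282966 in the demyelination controls and from 38314 to 3528970 in demyelination. Demyelination control 1 held 1180 reads, so its values carry almost no information, and demyelination 5 was the deepest library. File names carried a prefix of unstated meaning, which was P1 for 4AP controls 1 to 4, P2 for 4AP control 5 and all 4AP libraries, and P3 for the whole demyelination experiment. The P1 controls had reads of 9750 to 11048 genes, and 4AP 1, the shallowest P2 library, had reads of 17096. Demyelination controls 3 and 4 had reads of 13630 and 12644 genes at 121069 and 109946 total reads. All 10 oligodendrocyte lineage markers were detected in every group, with a summed level of 430 to 858 CPM (each gene's reads after scaling by the total gene reads of its library) in the 4AP controls and 751 to 1366 in 4AP. It was 0 CPM in demyelination control 1, 982 to 2222 in demyelination controls 2 to 5 and 293 to 1299 in demyelination. Demyelination libraries 1 to 5 had reads of 7, 7, 9, 9 and 10 of these markers. Markers of other cells were present too, and some differed between the P1 controls and the P2 libraries, which include control 5. Microglia and macrophage markers summed to 912 to 1451 CPM in 4AP controls 1 to 4, 499 in control 5 and 424 to 586 in 4AP. Of these 7 markers, 4, 3, 4, 4 and 6 had reads in controls 1 to 5. In 4AP libraries 1 to 5 it was 4, 7, 4, 6 and 6. The marker p2ry12 was at 0 in all controls and in 4AP 1, 3 and 4. The marker apoeb had reads in every library, and in demyelination 3 and 4 it alone made up the sum, at 308 and 349 CPM. Its share of the sums in the 4AP experiment was not worked out, so they are not read as an amount of microglia. Neuron markers summed to 290 to 380 CPM in controls 1 to 4, 637 in control 5 and 502 to 722 in 4AP. Controls 1 to 4 had reads of 4, 5, 4 and 5 of these 8 markers, and control 5 and every 4AP library had reads of all 8. Fibroblast, mural and endothelial markers ran from 4421 to 5423 CPM in the controls and from 4271 to 10025 in 4AP, and those of epidermis from 4122 to 11474 and from 4533 to 9751. The part of these cells in the values below was not tested. In such bulk samples fewer cells of a type and less RNA per cell cannot be told apart.

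The secreted Frizzled-related protein gene sfrp5 (ENSDARG00000039041, chromosome 13, 39911551 to 39947335) was low in the 4AP controls and higher in every 4AP library. It had 0, 2, 0, 1 and 19 reads in 4AP controls 1 to 5, and 63, 50, 47, 59 and 41 reads in 4AP libraries 1 to 5. Scaled to depth these were 0, 6.77, 0, 6.13 and 21.2 CPM in the controls and 177, 44.8, 74.3, 33.8 and 39.1 CPM in 4AP. The groups did not overlap, 4AP 1 stood above the other 4AP libraries, and control 5 stood above the other controls. With edgeR the log2 fold change was 2.63 ± 0.67 (SE), and it was 2.11 without 4AP 1, where sfrp5 was no longer called, and 4.14 without control 5.

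The demyelination experiment showed no such separation for sfrp5. Its reads were 0, 7, 7, 7 and 3 in demyelination controls 1 to 5, and 0, 2, 53, 5 and 160 in demyelination libraries 1 to 5. As levels these were 0, 24.7, 57.8, 63.7 and 13.2 CPM in the controls and 0, 52.2, 654, 60.1 and 45.3 CPM in demyelination. The groups overlapped, and demyelination 3 alone was more than any control. The group mean was 162 ± 276 CPM in demyelination (SD, n = 5) and 39.4 ± 27.0 CPM without demyelination 3 (SD, n = 4), against 31.9 ± 27.8 CPM in its control (SD, n = 5). Without demyelination control 1, with its 1180 reads, the control mean was 39.9 ± 24.7 CPM (SD, n = 4).

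By mean level the order for sfrp5 was demyelination, 4AP at 73.7 ± 59.7 CPM, demyelination control and 4AP control at 6.81 ± 8.65 CPM (SD, n = 5). Each pair of neighbours in this order differed by less than the larger of its SDs. Across the experiments, treatment and prefix cannot be told apart. Without demyelination 3 the demyelination mean, 39.4 CPM, lay below that of 4AP, also with 4AP 1 left out (48.0 CPM). By median demyelination lay above 4AP, at 52.2 against 44.8 CPM, so their order depends on the measure.

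**Figure D1:**
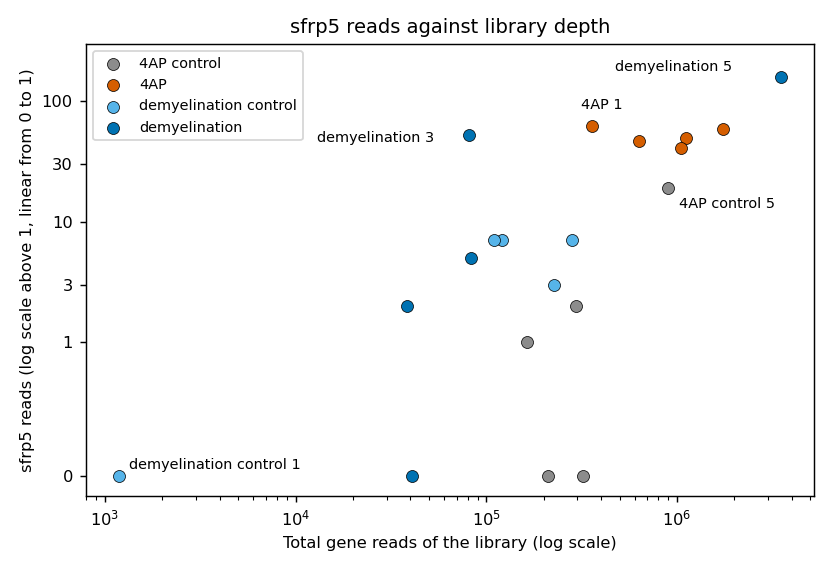
Reads of sfrp5 (vertical axis, log scale above 1) against total gene reads (horizontal axis, log scale), with 1 point for each of the 20 libraries coloured by group. The 5 4AP libraries lie between 41 and 63 reads whatever their depth, and demyelination 3 has 53 reads at a depth where the other demyelination experiment libraries have 7 or fewer.

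The plot of sfrp5 reads against depth shows that reads of sfrp5 did not follow depth within 4AP. Reads differed 1.54-fold between the lowest and the highest 4AP library while total reads differed 4.89-fold, and the most sfrp5 reads were in the shallowest library, 4AP 1. Among 2916 genes with a mean of 30 to 100 reads in 4AP, 2 had their highest count in that library (0.0686%) and 2661 had their lowest there (91.3%). The gene sfrp5 is itself among the 2916 and among the 2. 4AP 1 held 24.2% of the sfrp5 reads of the group and 7.33% of the reads of those genes. These counts were made after the sfrp5 values were seen, and on the 4AP libraries that chose the genes, so they are a description.

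Reads of sfrp5 that cross exon junctions were few. In 4AP 1 and demyelination 3 together, 0 of 115 sfrp5 exon reads spanned a junction, against 20 of 355 in the other 18 libraries. These 2 libraries were picked for the highest sfrp5 level of each treatment. Having no junction reads was not particular to them, with 0 of 45 in 4AP 3 and 0 of 22 in the 4AP controls. Of the 20 junction reads 10 came from demyelination 5. Astroglia and radial glia markers summed to 4317 CPM in demyelination 3, with 4 of 7 detected, and to 520 to 1096 CPM in the other demyelination libraries. In 4AP 1, fibroblast, mural and endothelial markers summed to 10025 CPM, the highest of the 4AP experiment, with 4 of 5 detected. Oligodendrocyte lineage markers were also highest there, at 1366 CPM with all 10 detected. The part of depth, library composition or cell makeup in these sfrp5 values was not tested.

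Among the other Frizzled-related genes, sfrp1a (ENSDARG00000035521, chromosome 5, 27488975 to 27538745) was the best covered. It had 3, 5, 2, 4 and 23 reads in the 4AP controls (9.27, 16.9, 9.43, 24.5 and 25.6 CPM) and 8, 39, 25, 69 and 24 reads in 4AP (22.4, 34.9, 39.5, 39.6 and 22.9 CPM). The groups overlapped, and the log2 fold change was 0.55 ± 0.42 (SE). In the demyelination experiment its levels were 0, 17.7, 0, 36.4 and 13.2 CPM in the controls and 0, 0, 12.3, 12.03 and 17.002 CPM in demyelination, again overlapping.

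The paralog sfrp1b and the related sfrp2, both antagonists that bind Wnt ligands, were sparse. Reads of sfrp1b were 4, 1, 1, 0 and 1 in the 4AP controls and 4, 9, 5, 3 and 2 in 4AP, and reached 1 in the demyelination controls and 9 in demyelination 5, the other demyelination libraries being at 0. Reads of sfrp2 were 4, 0, 3, 0 and 20 in the 4AP controls and 4, 31, 18, 29 and 17 in 4AP. For sfrp2 this was 9.76 ± 9.66 CPM in the controls and 20.05 ± 7.65 CPM in 4AP (SD, n = 5), with overlapping groups. In the demyelination experiment sfrp2 was at 8.84 ± 10.2 CPM in the controls and 3.66 ± 5.49 CPM in demyelination (SD, n = 5), with 3 of 5 demyelination libraries at 0. These were demyelination 1, 2 and 4, where 0 reads allow up to 73.5, 78.3 and 36.1 CPM (the level of 3 reads). A lower level in demyelination is therefore not shown. Without demyelination control 1 the control mean was 11.05 CPM (n = 4).

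A set of 3 antagonist genes had no reads in most 4AP controls. The Wnt binding antagonist genes frzb (ENSDARG00000018383, chromosome 9, 44832032 to 44839148) and wif1 (ENSDARG00000005541, chromosome 4, 12931763 to 12956718) and the co-receptor antagonist gene dkk1b (ENSDARG00000045219, chromosome 12, 6465557 to 6467675) had 0 reads in all 4 controls with prefix P1. These 4 libraries held 994426 reads together, so 0 reads allow a pooled level of up to 3.02 CPM, the level that 3 reads would give. This limit covers counting error only. The P1 controls had reads of fewer genes than the shallower demyelination controls 3 and 4. The part of this in the 0 counts was not tested.

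In the single P2 control, number 5, frzb had 12 reads (13.4 CPM), wif1 had 15 (16.7 CPM) and dkk1b had 8 (8.91 CPM). In 4AP libraries 1 to 5, all P2, frzb had 0, 14, 5, 12 and 7 reads, wif1 had 1, 17, 15, 25 and 14, and dkk1b had 1, 14, 8, 19 and 12. Control 5 therefore lay above the 4AP mean for frzb, which was 6.80 ± 4.48 CPM, and for wif1, at 13.9 ± 7.44 CPM, and below it for dkk1b, at 10.1 ± 4.12 CPM (SD, n = 5). The shallowest P2 library, 4AP 1, with 356494 reads against 163158 to 323598 in the P1 controls, had 0 or 1 read of each gene. The treatment, the prefix and depth cannot be told apart for the 4 P1 controls.

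In the demyelination experiment, all of 1 prefix, these 3 genes were detected in few reads. Reads of wif1 were 0, 10, 2, 2 and 7 in the controls and 0, 2, 1, 0 and 86 in demyelination, or 20.2 ± 13.9 and 17.8 ± 21.7 CPM (SD, n = 5). Without demyelination control 1 the wif1 control mean was 25.2 ± 9.30 CPM (SD, n = 4). Reads of dkk1b were 0, 0, 2, 4 and 4 in the controls and 0, 0, 0, 0 and 23 in demyelination, where the single positive library was the deepest and had 6.52 CPM. For frzb, 0, 1, 0, 2 and 1 reads in the controls stood beside 1, 1, 0, 0 and 9 in demyelination, and the groups overlapped for all 3 genes. At the depths of demyelination 1 to 4, 0 reads allow up to 73.5, 78.3, 37.0 and 36.1 CPM, so 0 counts there do not show a lower level.

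**Figure D2:**
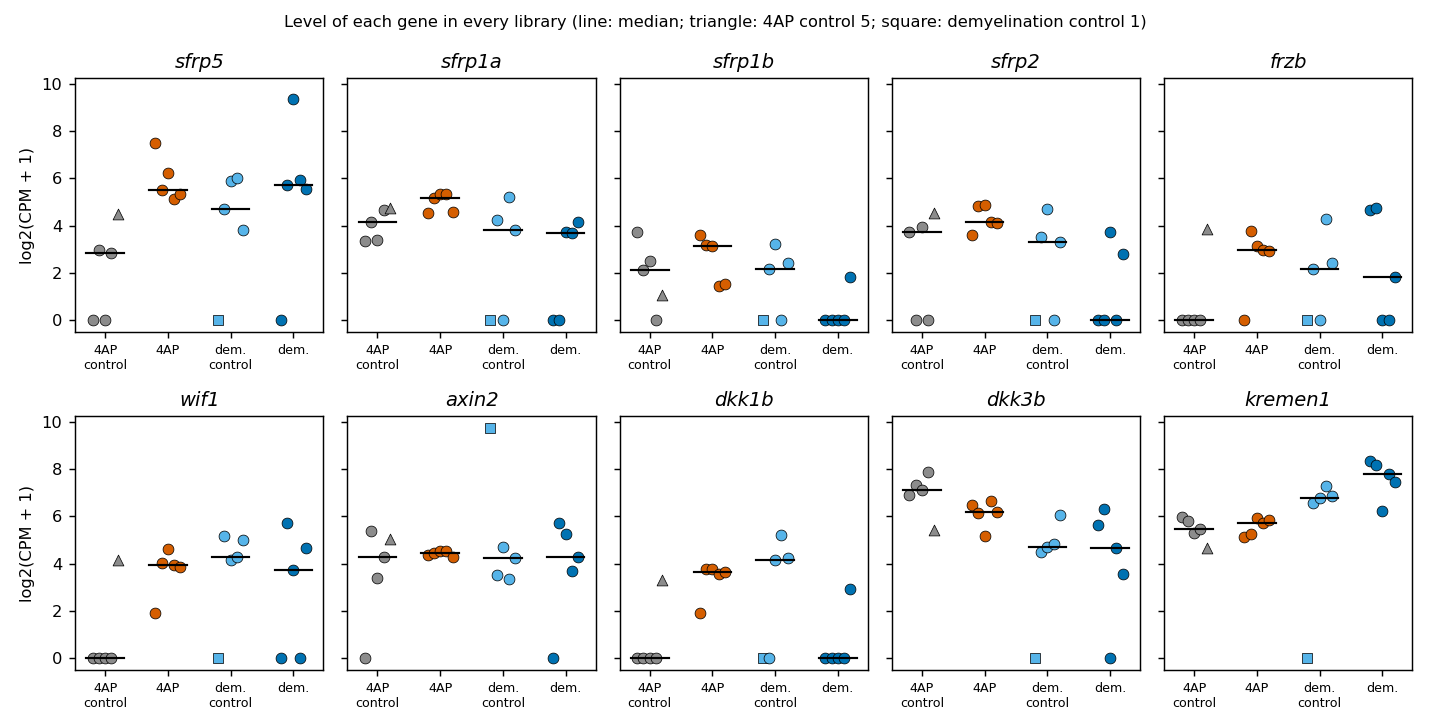
Level of each of the 10 genes as log2(CPM + 1) (vertical axis) in every library of the 4 groups (horizontal axis, dem. for demyelination), with a line at the group median, a triangle for 4AP control 5 and a square for demyelination control 1. The 4AP points of sfrp5 lie above all its control points, and frzb, wif1 and dkk1b are at 0 in 4 of 5 4AP controls, the exception being control 5.

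The panels by gene also show dkk3b (ENSDARG00000070683, chromosome 25, 16132580 to 16146851), a divergent member of the dickkopf family, whose place in Wnt signalling is less clear than that of dkk1b. It had 38, 47, 29, 38 and 38 reads in the 4AP controls (117, 159, 137, 233 and 42.3 CPM) and 31, 78, 22, 173 and 75 in 4AP (87.0, 69.8, 34.8, 99.2 and 71.5 CPM). The 4 P1 controls were above every 4AP library, and control 5 was below all but 1 of them. The log2 fold change was -1.20 ± 0.41 (SE), and with the prefix as a term it was 0.59 ± 0.53, of the opposite sign.

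In the demyelination experiment dkk3b was at 0, 21.2, 24.8, 27.3 and 66.2 CPM in the controls and 49.0, 78.3, 0, 24.1 and 10.8 CPM in demyelination. These rest on 0 to 38 reads a library, and the groups overlapped. Its group means ran from 138 ± 69.0 CPM in the 4AP controls through 72.4 ± 24.2 in 4AP to 32.4 ± 31.5 in demyelination, with the demyelination control at 27.9 ± 24.0 (SD, n = 5). In this order 4AP and demyelination differed by more than either SD, and the other neighbours by less than the larger of theirs. The controls of both experiments, at 138 and 27.9 CPM, differed too. Across the experiments, treatment and prefix cannot be told apart. Without demyelination control 1 the demyelination control was at 34.9 ± 21.0 CPM (SD, n = 4), above the demyelination mean.

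The gene kremen1 (ENSDARG00000062579, chromosome 5, 16151944 to 16274058) encodes a transmembrane receptor that binds Dkk1. It was the only 1 of the 10 genes with enough reads to be tested in the demyelination contrast. Its reads were 0, 26, 13, 17 and 26 in the demyelination controls and 13, 11, 6, 18 and 610 in demyelination. As levels these were 0, 91.9, 107, 155 and 115 CPM in the controls and 319, 287, 74.0, 216 and 173 CPM in demyelination, so 4 of 5 demyelination libraries were above every control and demyelination 3 was below all but control 1. That control held 1180 total reads. Nearly all these kremen1 reads lay in introns. Exon reads were 4 of 82 in the controls and 31 of 658 in demyelination, where demyelination 5 held 30 of them. The log2 fold change was 1.103 ± 0.36 (SE), which did not pass edgeR's quasi-likelihood test (unadjusted p = 0.00907, Benjamini-Hochberg adjusted p = 0.459).

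In the 4AP experiment kremen1 lay within the spread of its control. It was at 61.8, 54.1, 37.7, 42.9 and 24.5 CPM in the controls and 33.7, 36.7, 60.1, 52.2 and 56.2 CPM in 4AP, with a log2 fold change of -0.19 ± 0.37 (SE) that changed sign with library totals (0.21), with limma on the deposited CPM (0.0031) and with a prefix term (0.79). The deposited CPM hold exon reads scaled by library total, so the limma value differs in reads, scaling and test at once. Control 5 was the lowest control. The difference between both responses was -1.13 ± 0.55 on the log2 scale (SE, edgeR adjusted p = 0.297), and it contains the 4AP contrast.

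The intracellular scaffold gene axin2 (ENSDARG00000100149, chromosome 3, 55627948 to 55650771) encodes part of the β-catenin destruction complex and is itself a target of the pathway. Its reads were 0, 12, 2, 3 and 29 in the 4AP controls and 7, 23, 14, 39 and 19 in 4AP. As levels these were 0, 40.6, 9.43, 18.4 and 32.3 CPM in the controls and 19.6, 20.6, 22.1, 22.4 and 18.1 CPM in 4AP. The 4AP libraries lay close together, within a range that the controls spanned on both sides, and the log2 fold change was -0.36 ± 0.56 (SE). Its sign turned with library totals (0.0026) and with limma on the deposited exon CPM (0.83).

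In demyelination axin2 was at 0, 52.2, 37.0, 12.03 and 18.4 CPM, from 0 to 65 reads, and its controls 2 to 5 were at 10.6, 24.8, 9.10 and 17.6 CPM. Demyelination control 1 gave 847 CPM from 1 read of its 1180. Without that library the control mean was 15.5 ± 7.20 CPM (SD, n = 4), and demyelination was at 23.9 ± 20.7 (SD, n = 5), with overlapping values.

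In the fit over all genes, 5 of the 10 genes passed the filter on low reads in the 4AP contrast, namely sfrp5, sfrp1a, axin2, dkk3b and kremen1, and 1 of these, sfrp5, was called at an adjusted p under 0.05. Over all 5161 genes tested in that contrast 13.1% were called, 2.98% as higher and 10.1% as lower, and 9.53% had groups that did not overlap. The contrast chose the genes, and sfrp5 passed the filter through the 4AP libraries, so nothing is read from this count or from the sfrp5 call. Higher and lower calls were 154 and 520 with TMM scaling, 411 and 207 with library totals, and 929 and 100 with limma on the deposited CPM. The median log2 fold change of all genes was 0.19 with TMM, 0.55 with library totals and 0.76 with limma on the deposited CPM.

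In the demyelination contrast 1 of the 10 genes passed the filter and 0 were called, against 0.0% of the 823 genes tested by edgeR. Of those genes 78 had an unadjusted p under 0.05, DESeq2 called 1, and 2.07% had groups that did not overlap. Without the filter, over 25772 genes, the largest log2 fold change among the 10 was that of sfrp5, at 1.996 ± 0.61 (SE, edgeR unadjusted p = 0.00104, adjusted p = 0.445). Demyelination 3 had by far the highest sfrp5 level, and the unfiltered fit was not repeated without it. The lowest log2 fold change among the 10 was that of dkk1b, at -1.53 ± 0.85 (SE, edgeR unadjusted p = 0.0723, adjusted p = 0.747).

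For the difference between both responses, 3 of the 10 genes passed the filter, sfrp5, dkk3b and kremen1, and 0 were called by edgeR, where 1 of them had an unadjusted p under 0.05. Of 3981 genes 1.66% were called, 0.352% as higher and 1.31% as lower (14 and 52 genes, or 60 and 10 with library totals). DESeq2 called 0 of the 3 as well. The difference for sfrp5 was 0.27 ± 1.24 (SE, adjusted p = 0.968), and its sign turned with DESeq2 size factors (-0.012) and with the prefix as a term (-0.82). For dkk3b it was -0.35 ± 0.86 (SE, edgeR adjusted p = 0.913). The sfrp5 difference contains the 4AP values that chose the genes, and it ran from -0.27 to 2.27 when single libraries were left out.

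**Figure D3:**
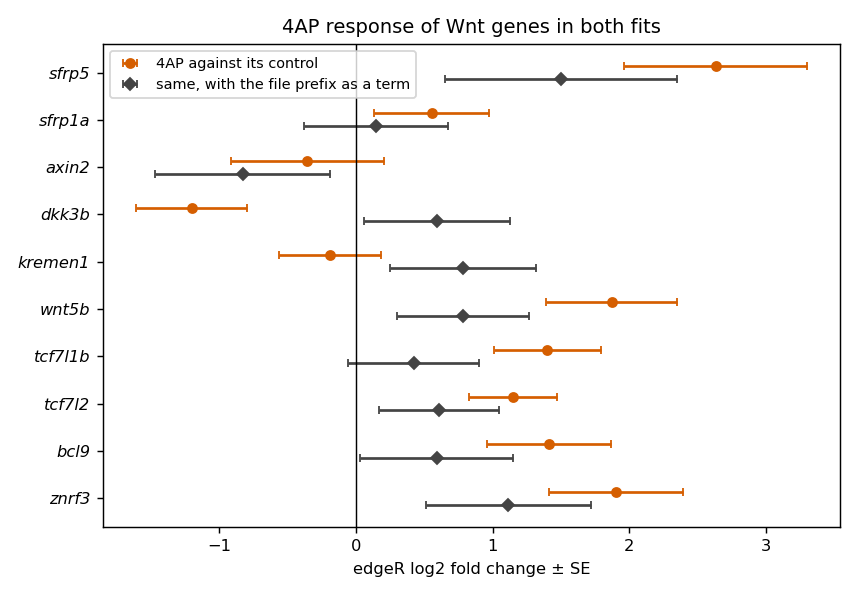
Log2 fold change of 4AP against its control (horizontal axis, bars show SE) for the 5 tested genes and 5 further Wnt genes, in the fit on 10 libraries (circles) and in the same fit with the file prefix as a term (diamonds). With the prefix as a term sfrp5 is at 1.501 instead of 2.63, and dkk3b and kremen1 lie on the other side of 0.

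The comparison of both fits rests, with the prefix as a term, on 4AP control 5 as the single control of its prefix. In that fit sfrp5 was at 1.501 ± 0.85 (SE), sfrp1a at 0.15 ± 0.53 and axin2 at -0.83 ± 0.64. Of 5161 genes 0 were called by edgeR (106 at an unadjusted p under 0.05). All 5 4AP libraries were above control 5 for sfrp5, and for sfrp1a 3 of 5 were.

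The wider pathway was followed through 128 other genes, of which 118 had an entry and 48 passed the filter in the 4AP contrast. edgeR called 5 of them, all higher (10.4%, against 2.98% of all genes tested called higher and 13.1% called in either direction), and the median log2 fold change of the 48 was 0.62 against 0.19 for all genes. Genes low in the controls could pass the filter only through the 4AP libraries, which fixes their direction. Among 15 nuclear effectors 7 were tested and 3 called, among 27 ligands and secretion genes 3 and 1, and among 14 feedback and target genes 7 and 1. None was called among the 7 tested of 20 other extracellular modulators, the 11 tested receptors or the 13 tested cytoplasmic genes.

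The ligand gene wnt5b (ENSDARG00000102464, chromosome 4, 8532580 to 8663117), known mainly for non-canonical signalling, had 6.18, 3.38, 4.72, 6.13 and 28.97 CPM in the 4AP controls and 42.1, 55.5, 60.1, 57.9 and 65.8 CPM in 4AP. The groups did not overlap, and the log2 fold change was 1.87 ± 0.48 (SE, edgeR adjusted p = 0.0199). Controls 1 to 4 held only 2, 1, 1 and 1 reads of wnt5b. It passed the filter through the 4AP libraries, so its direction and separation are a description. The gene znrf3 (ENSDARG00000062573, chromosome 5, 15992655 to 16126906) encodes a ubiquitin ligase that removes Frizzled receptors from the surface. It had 6.18, 6.77, 0, 24.5 and 25.6 CPM in the controls and 64.5, 54.6, 63.2, 58.5 and 76.2 CPM in 4AP, again without overlap (log2 fold change 1.90 ± 0.49 SE, edgeR adjusted p = 0.0205). Controls 1 to 4 held 2, 2, 0 and 4 reads of znrf3, which also passed the filter through the 4AP libraries.

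Of the nuclear effectors, the Tcf factor genes tcf7l2 and tcf7l1b and the β-catenin coactivator gene bcl9 were called higher in 4AP. In mice Tcf7l2 is expressed in oligodendrocytes as they differentiate. The level of tcf7l2 was 33.99, 37.2, 33.0, 18.4 and 62.4 CPM in the controls and 89.8, 117, 103, 117 and 112 CPM in 4AP (log2 fold change 1.15 ± 0.32 SE, edgeR adjusted p = 0.0282). The repressive Tcf gene tcf7l1b had 27.8, 37.2, 70.7, 18.4 and 126 CPM in the controls and 210, 165, 130, 237 and 215 in 4AP. In both genes control 5 was the highest control. Control 4 held 3 reads of each, so without 4AP libraries neither gene would have passed the filter. Their direction is a description.

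For tcf7l1b control 5 came close to the lowest 4AP library, and after TMM scaling the groups overlapped (log2 fold change 1.40 ± 0.39 SE, edgeR adjusted p = 0.0286). For bcl9 the controls had 6.18, 20.3, 4.72, 12.3 and 33.4 CPM and the 4AP libraries 78.5, 49.2, 80.6, 43.0 and 44.8 CPM (log2 fold change 1.41 ± 0.45 SE, edgeR adjusted p = 0.048). Controls 1 to 4 held 2, 6, 1 and 2 reads of bcl9, which also passed the filter through the 4AP libraries. Before TMM scaling all 5 4AP libraries were above control 5 for these 5 genes.

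These 5 calls depended on the controls and on single libraries. With the prefix as a term edgeR called 0 of the 48 (0 at an unadjusted p under 0.05), and with exon reads alone it called 0 of 32 (10 at an unadjusted p under 0.05). With exon reads wnt5b, znrf3 and bcl9 were below the filter, and the log2 fold changes were 1.499 for tcf7l1b and 1.08 for tcf7l2 (edgeR adjusted p = 0.061 for both). Without control 5 it called 22, of which 19 were higher and 3 lower, and without control 2 it called 0. Without any 1 of the 4AP libraries it called 3 or 4. In 10 fits that each left out 1 library, bcl9 lost its call in 9, tcf7l1b in 7, tcf7l2 in 4, and wnt5b and znrf3 in 1 each. Control 5 was nearer to the 4AP mean than to the other controls for 36 of the 48 genes (75.0%), against 75.7% of all genes tested.

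**Figure D4:**
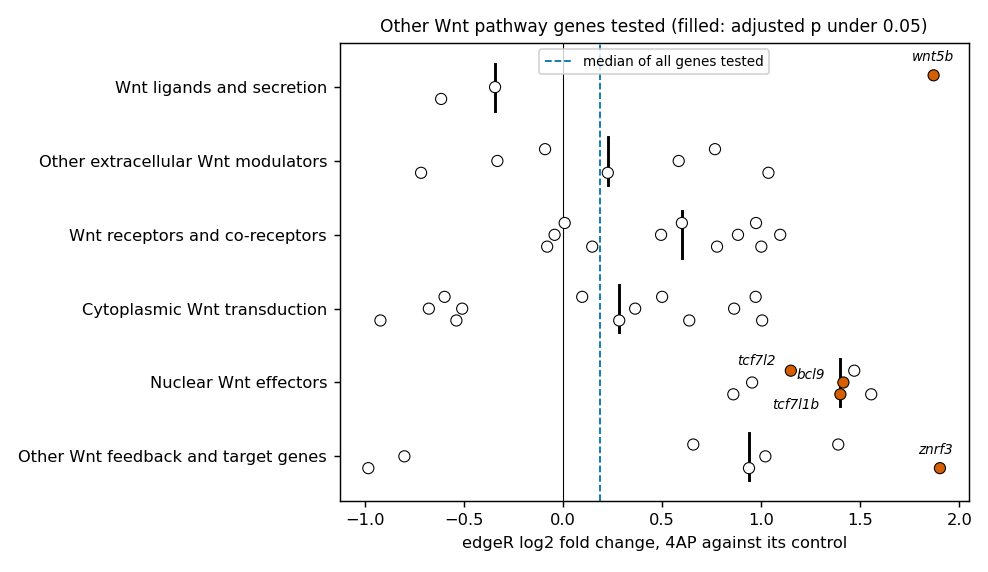
Log2 fold change of 4AP against its control (horizontal axis) for the 48 other Wnt pathway genes tested, 1 point a gene, in 6 lists (vertical axis), with a black bar at each list's median, filled points for genes at an edgeR adjusted p under 0.05 and a dashed line at the median of all genes tested (0.19). The 7 nuclear effectors that passed the filter lie above 0, as do 57.1% of all genes tested. Genes low in the controls could pass the filter only through 4AP.

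As the plot of the pathway lists shows, the 7 of 15 nuclear effectors that passed the filter were above 0, with a median of 1.40, where 57.1% of all genes tested were above 0 with a median of 0.19. Of these effectors, lef1 had a mean TMM-scaled level of 13.5 CPM in the controls and 49.1 in 4AP, and tle2a 6.20 and 31.1. Such genes passed the filter through 4AP alone, so nothing is read from their direction. The lists were not tested against each other. In the demyelination contrast 3 of the 118 genes passed the filter, and edgeR and DESeq2 both called 0 of them (0 at an unadjusted p under 0.05). For the difference between both responses 37 passed and both tools called 0 (6 at an unadjusted p under 0.05 in edgeR), and without 4AP control 5 edgeR called 6.

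The genes most like sfrp5 across the 10 libraries of the 4AP experiment were, by Pearson correlation of log2 CPM, bcl9 (r = 0.973), usp7 (0.966), ik (0.965), ylpm1 (0.963) and smad1 (0.956), with a median r of 0.279 over 5161 genes. These libraries share group, prefix and depth differences, so r is a description. After each group's mean was subtracted, the closest were pbx4 (r = 0.942), ehd1a (0.939), ik (0.925), bcl9 (0.924) and usp7 (0.917), with a median of 0.078. By Spearman's rank correlation bcl9 and cntfr were tied for first before subtraction (0.997).

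These genes parted in demyelination 3, where sfrp5 was far above the other libraries of its group. There pbx4 had 2886 CPM, against at most 343 in the other demyelination libraries, and usp7 had 271 CPM against at most 80.2. By contrast bcl9, ik and smad1 had 0 reads in that library, which allows up to 37.0 CPM at its depth. Their highest levels in the other demyelination libraries were 62.9, 78.3 and 36.1 CPM. For bcl9, demyelination 1 and 2 were at 0 reads too, so these 0 counts do not show a fall in demyelination 3.

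Where the reads lie within a gene also differed between the 10 genes. Intron reads made up 10.6% of the 526 sfrp5 reads over 20 libraries (95% exact binomial interval 8.14 to 13.6). Of these 56 intron reads 38 came from demyelination 5, and without that library the share was 4.92%. Intron reads were 24.3% of the 276 sfrp1a reads and 2.38% of the 42 sfrp1b reads. For kremen1 they made up 92.6% of 1054 reads, while the median over 15831 genes with at least 42 reads was 45.0%. The other 9 genes all lay below that median.

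**Figure D5:**
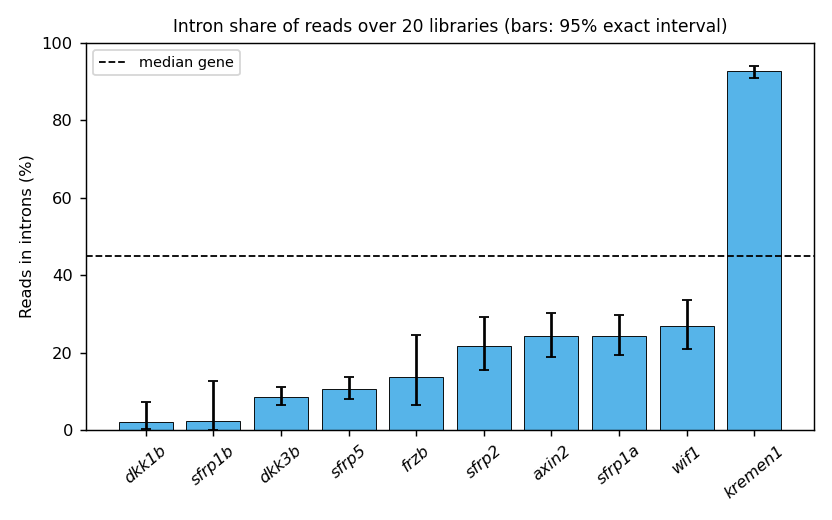
Share of reads in introns, in percent (vertical axis), for each of the 10 genes (horizontal axis) over the 20 libraries together, with 95% exact binomial intervals that cover counting error only and a dashed line at the median gene (45.0%). Only kremen1, at 92.6%, is above the line.

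The intron shares bear on which values depend on counting introns with their gene. The kremen1 values rest almost wholly on such reads, as do those of znrf3 (99.7% intron reads over the 4AP experiment) and wnt5b (94.6%), whereas tcf7l2 had 35.9%, tcf7l1b 40.1% and bcl9 45.8%. Reads from overlapping genes or from the other strand cannot be separated, since the strand of counting is not given in the sources used here. For sfrp5, with few intron reads, exon reads alone gave a log2 fold change of 2.76 ± 0.70 (SE) in 4AP.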

How the data were processed

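The authors deposited 1 table per library with, per the file headers, counts of total, unique, exon, intron and junction-spanning reads for each gene. Total reads equalled exon plus intron reads in all 20 tables. The deposited TPM and RPKM columns were identical and held CPM, exon reads scaled by a library total without gene length, and were used in 1 alternative. Libraries were made from 1 or 4 ng of RNA with the QIAseq UPX 3' kit per the labels' protocols, and the build was GRCz11 per the submitters' processing notes; coordinates are those of the tables. The aligner, annotation release, strand of counting and collapsing of molecular identifiers are not given in the sources used here, so intervals and limits for 0 reads (3 reads) cover counting error only. Sequences of the genes were not used here.

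Total gene reads were filtered with filterByExpr (minimum count 10, minimum total 15), scaled with TMM and fitted over all genes with edgeR 4.0.16 (robust quasi-likelihood test, limma 3.58.1, R 4.3.3). Each treatment was compared with its control, and the difference of both responses was fitted on all 20 libraries. P-values were adjusted by Benjamini-Hochberg over all genes tested, with calls under 0.05. The SE is the log2 fold change divided by the square root of F. The genes, the pathway lists and the markers were chosen with earlier results of these data known. The genes named were the 10, up to 4 called genes per direction of each pathway list by smallest p, and the 5 most like sfrp5 on each scale (log2 CPM, prior count 2). Whether groups overlap was read from TMM-scaled CPM in the tested contrasts.

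Alternatives were DESeq2 1.42.0, library totals, other filters, exon or unique reads, limma on the deposited CPM, as log2 after adding 1 (which also changes to exon reads and library totals), a replicate block, the prefix or depth as a term, a threshold of 0.01, and leaving out each library; leaving out libraries from levels, intron shares and correlations was chosen after seeing the data. All pairs of libraries within a group differed in a chi-square test except demyelination controls 1 and 3 (p = 0.292), where control 1 had 1180 reads; both were kept as separate samples.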

Additional observations from a re-analysis of the deposited data

Results flagged for a closer look

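In 54 groups of 5 libraries, 13 had a value whose gap to its nearest neighbour exceeded Dixon's 95% limit. For normal values chance marks about 1 in 20 groups, a rate that does not hold for sparse counts at unequal depth. A group with 4 libraries at 0 and 1 above is always marked, so 13 is not read as an excess. For sfrp5 the marked values were 4AP 1, at 177 CPM with the next library at 74.3, and demyelination 3, at 654 CPM with the next at 60.1. The Wnt antagonist genes frzb (13.4 CPM), wif1 (16.7 CPM) and dkk1b (8.91 CPM) stood out in 4AP control 5, with the other 4AP controls at 0. The ligand gene wnt5b did so in that library too, at 28.97 CPM with the next control at 6.18, and its total of 897620 reads was far from the next, 323598.

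In the demyelination experiment demyelination 5 stood apart by its total of 3528970 reads, and was the only library of its group with reads of sfrp1b (2.55 CPM) and dkk1b (6.52 CPM). Demyelination control 1 stood apart for axin2, at 847 CPM from 1 read, and demyelination control 4 for frzb, at 18.2 CPM from 2 reads. In 4AP 1 dkk1b was low, at 2.81 CPM from 1 read, with the next 4AP library at 10.9.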

How the results depend on the processing

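Genes called in 4AP numbered 674, and 194 with exon reads, 1029 with limma on the deposited CPM (exon reads, library totals), 448 with the replicate block, 133 at a threshold of 0.01, and 0 with the prefix or the library total as a term. The 5 other Wnt pathway genes became 8 with library totals, 11 with limma, and 0 with exon reads, either term or 0.01. The 11 with limma include bcl9, tcf7l1b and tcf7l2 but not wnt5b and znrf3. For these the log2 fold changes were 0.83 and 0.39 (limma adjusted p = 0.361 and 0.396). The 0 calls of demyelination became 1 with DESeq2's Wald test and 7 without a filter. The 66 calls of the difference became 122 with the Wald test, 114 without a filter, 39 with exon reads, 4 with limma, 8 with the replicate block, 3 at 0.01 and 0 with the prefix as a term. Log2 fold changes of opposite sign in 4AP were, for axin2, 0.0026 (library totals) and 0.83 (limma), for kremen1 0.21 (library totals), 0.0031 (limma) and 0.79 (prefix), and for dkk3b 0.59 (prefix); in the difference, for sfrp5 -0.012 (DESeq2 size factors) and -0.82 (prefix), and for dkk3b 0.13 (library totals), 0.0196 (no filter) and 1.54 (prefix). The cause was not tested.

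Leaving out each library gave 271 to 2140 calls in 4AP (the highest without control 5, the lowest without control 2), 0 to 22 Wnt pathway genes, 0 to 1 calls in demyelination, and 3 to 738 for the difference, with 0 to 6 pathway genes. It gave log2 fold changes of -0.68 to 0.025 for axin2 and -0.36 to 0.014 for kremen1 in 4AP, and of -0.27 to 2.27 for sfrp5 and -1.14 to 0.12 for dkk3b in the difference. Intron shares ran from 4.92% to 11.9% for sfrp5, 18.5% to 27.1% for sfrp1a, 0% to 3.03% for sfrp1b, 5.66% to 16.98% for frzb, 0% to 2.78% for dkk1b and 89.2% to 93.3% for kremen1.

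Libraries with the same replicate number correlated at -0.105 to 0.106 after group means were subtracted. With 5 libraries a group this cannot exclude a pairing. The replicate block is given for its counts of calls. The prefix could not be fitted in demyelination, where all libraries share it. Depth limits the demyelination contrast: 9 of the 10 genes were below its filter.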
